A study of Mus musculus with 6 samples.

Results

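The genes described here are 10 non-collagen matrix genes of fibroblasts and scar tissue, out of 21899 genes in the count table: Cilp, Mfap4, Dcn, Lum, Ogn, Postn, Fn1, Lox, Islr and Fmod. They were selected by name, and the names were chosen from measured values of the same mice, with the difference in Cilp and Mfap4 between the groups already known. Their differences between the groups are therefore given as a description with no test.

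Bulk RNA sequencing covered thalamus tissue of 6 mice, 3 in each of the groups RC and RN. All were male wild-type C57BL/6J mice, purchased at 8 to 10 weeks of age, whose left thalamus then received a single dose of 50 Gy of gamma radiation. At 2 weeks after irradiation, 2 µL of AAV9, an adeno-associated virus, was injected. The RC virus was AAV9 GFAP104::tdTomato, which carries a red fluorescent protein, and the RN virus was AAV9 GFAP104::mND1-tdTomato, which adds mouse NeuroD1. GFAP104 joins an EF1α enhancer to a short GFAP promoter and directs expression to astrocytes, so neither virus was aimed at fibroblasts. The tissue was taken with tweezers from beneath the hippocampus 6 weeks after irradiation, after perfusion with saline. The comparison asks how expression differed between irradiated mice given the NeuroD1 virus and those given the control virus. The tissue samples also differed in markers of bordering tissue, as given below. Mice without irradiation were not analysed here.

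The extracellular matrix of the brain is mostly hyaluronan and proteoglycan, and fibrous matrix is found chiefly around large vessels, in the meninges and in the stroma of the choroid plexus. Fibroblasts of these borders make collagens together with small leucine-rich proteoglycans, which sit on collagen fibrils and set their spacing and width. After injury, fibroblasts and other cells lay down fibronectin, periostin and cross-linked collagen in the scar.

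Libraries held 16561663 to 18657015 counts on genes. Levels are in CPM, that is, counts scaled to library size after TMM normalization, and 3 counts, the upper limit that a count of 0 allows, equal 0.160 to 0.179 CPM. These limits cover counting error only. Of 18782 genes with any count, 14956 passed the filter on low counts and were tested with edgeR's quasi-likelihood test, which called 11 genes, or 0.0735%, with a threshold of 0.05 on the adjusted p and at least 2-fold difference. The p-values measure only the spread between these mice. Neurod1, the gene of the RN virus, had 84, 91 and 90 counts in the RC mice and 1123, 1711 and 910 counts in the RN mice (log2 fold change 3.77, standard error, SE, 0.23, edgeR adjusted p = 0.00178). RN values lay above all RC values in 8.18% of the tested genes and below them in 8.12%.

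All 10 matrix genes passed the filter on low counts. Cilp passed it through the RN mice, since no RC mouse had more than 11 counts. Mfap4 also passed only with RN mice counted, since RC replicate 3 had 10 counts, just under the filter once scaled to library size. Cilp and Mfap4 were higher in every RN mouse than in every RC mouse, and the other 8 genes overlapped between the groups. Beside the background of 8.18%, nothing is read from these 2 genes, because the list was drawn up with this contrast known. The mean was higher in RN for 7 genes and lower for 3. The median log2 fold change was 0.50 over the 10 genes, 0.43 over the 8 without Cilp and Mfap4, and 0.0037 over all tested genes. The median of the 10 genes was 0.07 without RN replicate 2, 0.13 without RC replicate 3 and 0.88 without RC replicate 1, so it depended on single mice. Each library mixes the RNA of all cells in the tissue, so more cells of a type and more RNA per cell cannot be told apart.

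**Figure D1:**
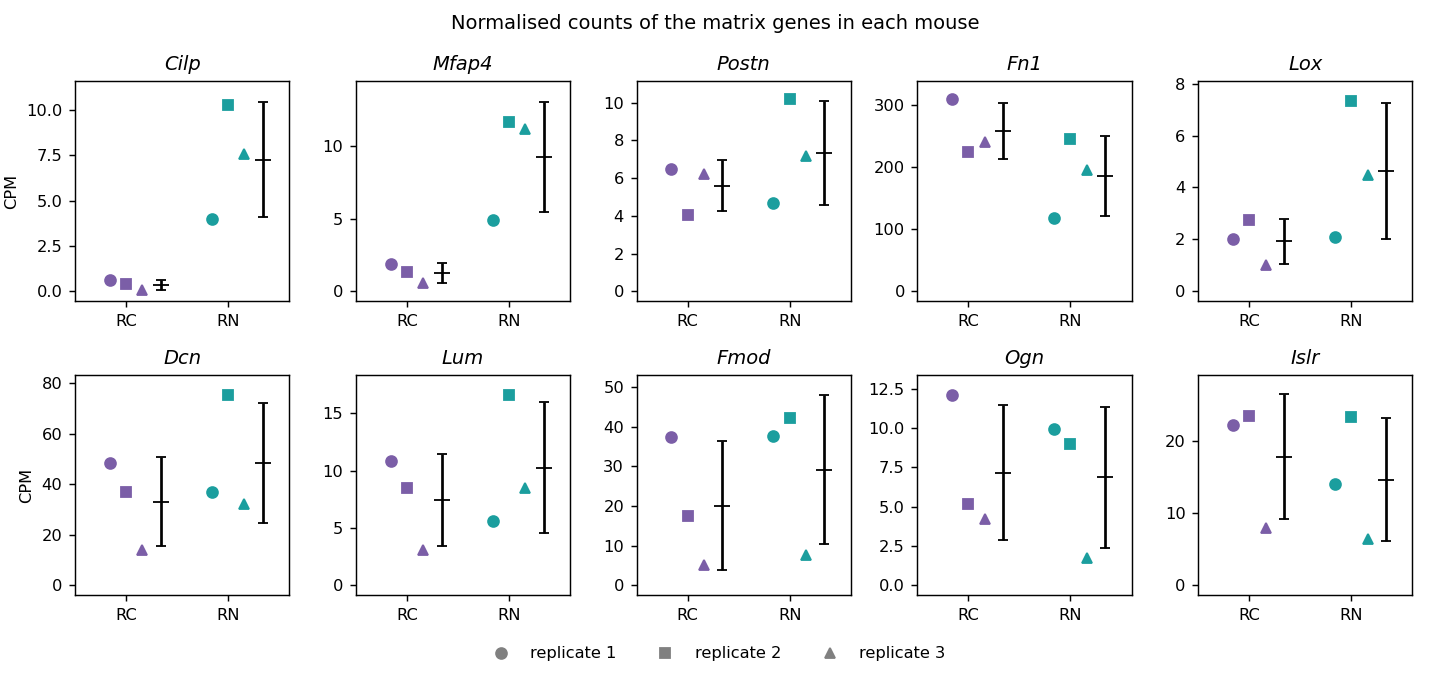
Each panel shows 1 matrix gene, with the level of each mouse in CPM on a linear axis that starts near 0, RC in purple and RN in teal, and the marker shape giving the replicate number. Black bars are the mean and SD of 3 mice. Cilp and Mfap4 separate the groups, and RN replicate 2 is the highest of the 6 mice in 7 of the 10 panels.

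Cilp (ENSMUSG00000042254) encodes cartilage intermediate layer protein, a secreted glycoprotein of cartilage that is also made by fibroblasts of fibrotic tissue. It had 11, 7 and 1 counts in the RC mice (replicates 1, 2 and 3, the order used throughout) and 67, 192 and 135 counts in the RN mice. The lowest RN mouse thus had several times the counts of the highest RC mouse, and RC replicate 3 lay under the limit of 3 counts. The mean was 0.364 ± 0.284 CPM (SD) over the 3 RC mice and 7.27 ± 3.15 CPM over the 3 RN mice (n = 3 each), a fitted log2 fold change of 4.29 (SE 0.60). This is a 19.6-fold difference from a level in RC that is close to the limit of 3 counts, so its size is imprecise.

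Mfap4 (ENSMUSG00000042436) encodes microfibril-associated protein 4, a fibrinogen-like protein that binds elastic fibres and collagen. It had 34, 22 and 10 counts in the RC mice and 82, 218 and 200 counts in the RN mice, so the groups were apart here as well. The mean was 1.26 ± 0.668 CPM (SD) over the 3 RC mice and 9.24 ± 3.78 CPM over the 3 RN mice (n = 3 each), a fitted log2 fold change of 2.86 (SE 0.47). In both genes, RN replicate 1 was the lowest RN mouse and RC replicate 1 the highest RC mouse. Exons of Mfap4 overlap Mapk7, a kinase gene on the opposite strand, and the use of strand in counting is not given in the sources used here. Mapk7 had 252, 212 and 250 counts in the RC mice and 259, 291 and 244 counts in the RN mice, a fitted log2 fold change of 0.12. Slc47a1, a transporter gene of brain fibroblasts close to Mfap4 on the same chromosome, had 76, 25 and 42 counts in the RC mice and 62, 106 and 6 counts in the RN mice and overlapped between the groups.

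The remaining scar proteins did not separate the groups. Lox, the lysyl oxidase that cross-links collagen and elastin, had 36, 46 and 18 counts in the RC mice and 35, 137 and 80 counts in the RN mice. RN replicates 2 and 3 lay above all RC mice, and RN replicate 1 lay among them, so the log2 fold change of 1.26 (standard error 0.50) came from 2 of 3 RN mice. Postn encodes periostin, a matricellular protein of remodelling tissue. It had 116, 68 and 109 counts in the RC mice and 79, 191 and 128 counts in the RN mice, with a fitted log2 fold change of 0.39 (SE 0.31).

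Fn1 encodes fibronectin, which endothelial cells and macrophages make as well as fibroblasts. It had 5518, 3749 and 4185 counts in the RC mice and 1971, 4584 and 3482 counts in the RN mice. Its mean was 257.7 ± 45.5 CPM (SD) over the 3 RC mice and 185.7 ± 64.4 CPM over the 3 RN mice (n = 3 each), so it was among the 3 genes with the lower mean in RN. RN replicate 2 lay within the RC range. Per kilobase of exon, which allows levels of different genes to be compared, Fn1 was the most abundant of the 10 genes in both groups, at 22.1 and 15.9 CPM per kb in RC and RN. Cilp was the least abundant in RC at 0.0856 CPM per kb, and reached 1.71 CPM per kb in RN.

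Dcn, Lum, Fmod and Ogn encode decorin, lumican, fibromodulin and osteoglycin, all small leucine-rich proteoglycans. Dcn had 861, 616 and 241 counts in the RC mice and 622, 1411 and 577 counts in the RN mice, a mean of 33.0 ± 17.6 against 48.2 ± 23.7 CPM (SD, n = 3 mice each). Lum, which lies next to Dcn, had 193, 142 and 53 counts in the RC mice and 94, 311 and 152 counts in the RN mice. Both genes were lowest in RC replicate 3 and highest in RN replicate 2, and in both the range within either group was wider than the difference between the group means.

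Fmod had 667, 294 and 91 counts in the RC mice and 631, 789 and 137 counts in the RN mice, so replicate 3 was low in either group. Ogn had 216, 86 and 74 counts in the RC mice and 167, 168 and 31 counts in the RN mice, with the lowest value of all 6 mice in RN replicate 3. The log2 fold changes of the 4 proteoglycan genes ran from -0.06 (standard error 0.61) for Ogn to 0.55 (standard error 0.46) for Dcn. Islr encodes a leucine-rich membrane protein of mesenchymal stromal cells, also called Meflin. It had 394, 392 and 137 counts in the RC mice and 236, 436 and 114 counts in the RN mice, again with replicate 3 lowest in each group. Exons of Islr overlap those of its neighbour Islr2 on the same strand, so how reads were divided between these genes is uncertain.

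The promoter table of RefSeq for the build GRCm38.p6 held 5 of the 10 genes, namely Cilp, Fmod, Ogn, Islr and Postn, the last with a pair of start sites. Shown are the 250 bases upstream of the start for Cilp, which separated the groups, and for Fmod and Ogn, which varied widely between mice of a group. They are written 5′ to 3′ on the strand of the gene. Capitals mark the E-box CANNTG, the motif that basic helix-loop-helix factors such as NeuroD1 bind, which reads as CANNTG on both strands.
Cilp, chr9:65264930-65265179, plus strand: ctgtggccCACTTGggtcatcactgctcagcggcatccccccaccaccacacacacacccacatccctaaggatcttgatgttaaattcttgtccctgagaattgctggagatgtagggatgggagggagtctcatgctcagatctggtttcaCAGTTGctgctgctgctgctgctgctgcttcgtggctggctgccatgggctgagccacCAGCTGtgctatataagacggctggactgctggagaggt
Fmod, chr1:134037004-134037253, plus strand: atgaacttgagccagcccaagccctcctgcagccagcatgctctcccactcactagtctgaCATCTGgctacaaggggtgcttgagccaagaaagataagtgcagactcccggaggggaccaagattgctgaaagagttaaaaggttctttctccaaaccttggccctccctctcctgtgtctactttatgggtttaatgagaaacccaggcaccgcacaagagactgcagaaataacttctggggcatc
Ogn, chr13:49607765-49608014, plus strand: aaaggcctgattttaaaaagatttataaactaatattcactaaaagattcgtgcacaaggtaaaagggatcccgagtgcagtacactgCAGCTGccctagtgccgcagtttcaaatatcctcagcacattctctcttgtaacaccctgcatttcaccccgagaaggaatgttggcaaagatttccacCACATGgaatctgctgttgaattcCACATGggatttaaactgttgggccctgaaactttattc
The motif stood 3 times in the window of Cilp, 3 times in that of Ogn, once (1 match) in those of Fmod and Islr, and 0 times in both windows of Postn. Of 32851 mouse promoters, 66.2% held at least 1 E-box in a window of this length. The form CAGATG, on either strand and itself an E-box, was in the window of Fmod alone among the 5 genes and in 14.4% of all promoters. The motifs TGANTCA of AP-1 and GTCTAGAC of SMAD factors, searched on both strands, were in none of the windows (0 matches) and in 6.75% and 0.167% of all promoters. A match is a description of the letters and not of a bound site.

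Within the groups, the same mice were low or high in many of the matrix genes. RC replicate 3 was the lowest RC mouse in 8 of the 10 genes, and RN replicate 2 the highest RN mouse in 9. Over all tested genes these shares were 34.6% and 33.0%. Dcn, Fmod, Ogn and Islr had their lowest RN value in RN replicate 3, and the other 6 genes in RN replicate 1. The first 4 genes, 40% of the list, had replicate 3 lowest in both groups, against 12.1% of all tested genes.

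Markers of brain fibroblasts that are not among the 10 genes were lowest in RC replicate 3 of RC in 18 of 23 tested genes (78.3%) and in RN replicate 3 of RN in 19 (82.6%). In RN, 4 of the 10 matrix genes (40%) were lowest in replicate 3, near the 31.9% of all tested genes. Slc6a13, a GABA and taurine transporter of meningeal fibroblasts, had 242, 98 and 48 counts in the RC mice and 251, 275 and 56 counts in the RN mice. Slc22a6, an organic anion transporter, had 144, 43 and 21 counts in the RC mice and 155, 226 and 14 counts in the RN mice. Replicate 3 was lowest in both groups in 14 of the 23 markers (60.9%). Among 14 collagen genes, 12 (85.7%) were lowest in RC replicate 3 of RC and 3 (21.4%) in RN replicate 3 of RN. Over all tested genes these shares were 34.6% and 31.9%. These correspondences describe 6 mice, and whether the amount of border tissue in a sample set them was not tested.

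**Figure D2:**
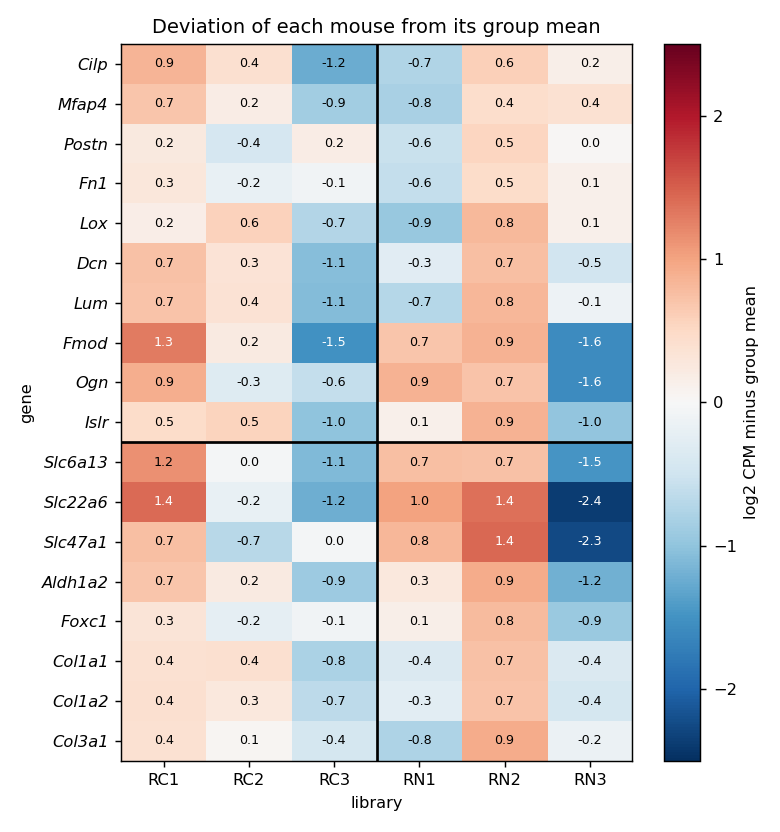
Colour and number give the log2 CPM of each mouse minus the mean of its own group, for the 10 matrix genes above the horizontal line and for fibroblast transporters, fibroblast regulators and collagens under it. Fmod, Ogn, Slc6a13 and Slc22a6 are low in replicate 3 of both groups, while Cilp and Mfap4 are low in RC replicate 3 and RN replicate 1.

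The fibroblast label was checked with 24 marker genes, of which 23 passed the filter. All 24 were detected in every mouse, although Dpt, a marker of fibroblasts in many organs, had only 4 to 17 counts. Some of them are not particular to fibroblasts in the brain, such as Pdgfra, which oligodendrocyte precursors also make. The summed level of the list was 379.3 to 546.8 CPM in RC and 383.3 to 584.1 CPM in RN, with overlapping groups. Cygb alone held 88.5 to 106.0 CPM of it and Pdgfra 37.8 to 60.7 CPM, so the overlap does not show equal amounts of fibroblasts. Of the 23 tested markers, 1 gene, Cygb, was higher in RN without overlap and 0 were lower, against 8.18% and 8.12% of all tested genes. The sum of 4 transporters (Slc6a13, Slc22a6, Slc47a1 and Slc13a3) was 33.6 to 67.0 CPM in RC and 29.0 to 72.9 CPM in RN.

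Counts were also set against those of Dcn in the same library, as a description with no test. Per 100 Dcn counts, Cilp had 1.28, 1.14 and 0.415 counts in the RC mice and 10.8, 13.6 and 23.4 counts in the RN mice. Mfap4 had 3.95, 3.57 and 4.15 in RC and 13.2, 15.4 and 34.7 in RN. These ratios restate differences for which Cilp and Mfap4 were chosen, so nothing is read from their separation. Lum, by comparison, had 22.4, 23.1 and 21.99 counts per 100 Dcn counts in the RC mice and 15.1, 22.04 and 26.3 counts in the RN mice, with overlap.

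Islr, which overlapped between the groups in CPM, had 45.8, 63.6 and 56.8 counts per 100 Dcn counts in the RC mice and 37.9, 30.9 and 19.8 counts in the RN mice, with all RN mice under all RC mice. Of the tested genes other than Dcn, 0.294% had a ratio to Dcn that was higher and 4.01% one that was lower in RN without overlap, and the ratios use the contrast that chose the genes, so nothing is read from that of Islr either. Lox ranged from 4.18 to 7.47 in RC and from 5.63 to 13.9 in RN, Fmod from 37.8 to 77.5 in RC and from 23.7 to 101.4 in RN, and Ogn from 14.0 to 30.7 in RC and from 5.37 to 26.8 in RN, all with overlap.

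**Figure D3:**
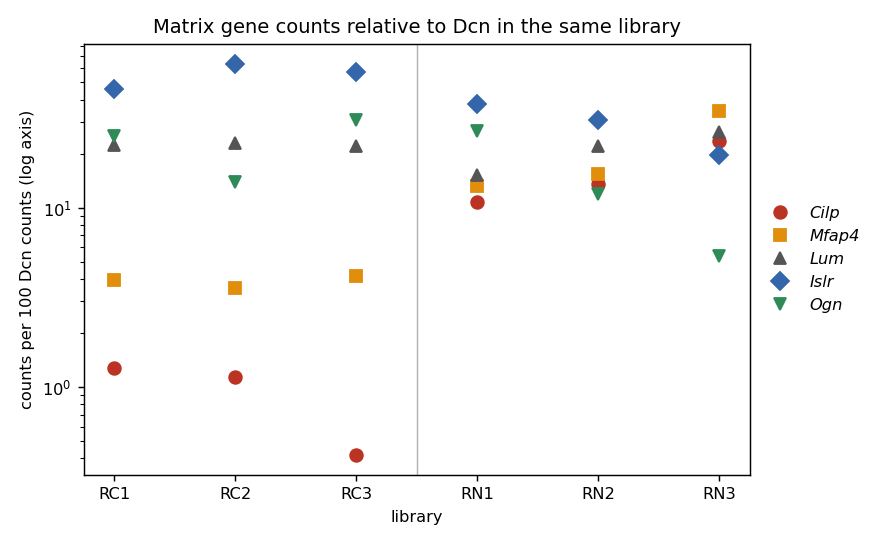
Counts of 5 matrix genes per 100 counts of Dcn in the same library, on a log axis, with RC libraries to the left of the line and RN libraries to the right. Cilp lies at 0.415 to 1.28 in RC and 10.8 to 23.4 in RN, Mfap4 at 3.57 to 4.15 and 13.2 to 34.7, Lum between 15.1 and 26.3 in all libraries, and Islr lower in RN.

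The other matrix genes were taken from lists of proteoglycans, matricellular proteins, elastic fibre proteins, hyaluronan and lectican genes, assembly enzymes, matrix receptors and the TGF-beta pathway. Of these 141 genes, 134 passed the filter, and edgeR's quasi-likelihood test called 0 of them, against 0.0735% of all tested genes. The smallest adjusted p was 0.0696. An unadjusted p under 0.05 was found for 32 genes, of which 11 were at least 2-fold higher and 2 at least 2-fold lower in RN. Over all tested genes these shares were 11.8%, 1.16% and 1.31%. DESeq2's Wald test called 8 of them higher and 0 lower, while it called 1.15% of all the genes that it tested. The median log2 fold change of the 134 genes was 0.08, and RN values lay above all RC values in 16 genes and below them in 11. Over all tested genes these shares without overlap were 8.18% and 8.12%. The same shares apply to the counts without overlap in every list below.

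Of these genes, Hmcn2, from the elastic fibre list, came closest to the threshold. Hmcn2, which encodes hemicentin 2, a giant matrix protein, had 18, 14 and 26 counts in the RC mice and 60, 119 and 79 counts in the RN mice. Its fitted log2 fold change was 2.10 (SE 0.34, edgeR adjusted p = 0.0696). Ltbp2, a microfibril protein related to the latent TGF-beta binding proteins, had 32, 26 and 10 counts in the RC mice and 80, 141 and 71 counts in the RN mice (log2 fold change 2.05, SE 0.43, edgeR adjusted p = 0.126). Adamtsl2, which encodes a protein that binds fibrillin microfibrils, had a log2 fold change of 1.40 (edgeR adjusted p = 0.131). In all 3 genes the groups did not overlap. Over the 22 genes of the elastic fibre list, the median log2 fold change was 0.19, with 5 genes higher and 2 lower without overlap.

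Among matricellular proteins and glycoproteins, Tnc, Spp1 and Ccn4 had the smallest p. Tnc encodes tenascin C, which is made in scars and by reactive astrocytes. It had 207, 208 and 267 counts in the RC mice and 295, 1001 and 745 counts in the RN mice (log2 fold change 1.52, SE 0.36, edgeR adjusted p = 0.139). Spp1 encodes osteopontin, which macrophages make in quantity, and had a log2 fold change of 1.38 (edgeR adjusted p = 0.116). Ccn4, a secreted matricellular protein induced by Wnt signalling, had 17, 10 and 8 counts in the RC mice and 29, 50 and 43 counts in the RN mice (edgeR adjusted p = 0.133). The 32 tested genes of this list had a median log2 fold change of 0.23, with 6 genes higher and 2 lower without overlap. By DESeq2's Wald test, the adjusted p was 0.000105 for Hmcn2, 0.000879 for Ltbp2, 0.00153 for Adamtsl2, 0.000335 for Tnc, 0.00845 for Spp1 and 0.0307 for Ccn4, and it also called Tnxb and Inhba. Over all alternatives the adjusted p ran from 0.000105 to 0.413 for Hmcn2, from 0.000879 to 0.284 for Ltbp2, from 0.00153 to 0.507 for Adamtsl2, from 0.000335 to 0.538 for Tnc, from 0.00845 to 0.372 for Spp1 and from 0.0307 to 0.471 for Ccn4.

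Collagens, the partners of the proteoglycans, were not called in either direction. The 14 collagen genes had a median log2 fold change of 0.56, and 3 were higher and 0 lower without overlap. Col6a1, a chain of beaded-filament collagen VI, had 198, 216 and 152 counts in the RC mice and 239, 500 and 416 counts in the RN mice (log2 fold change 0.97, adjusted p = 0.173 from edgeR). Col6a2 had a log2 fold change of 0.92 (edgeR adjusted p = 0.276), and both were higher in RN without overlap. Col8a1 had 292, 449 and 81 counts in the RC mice and 84, 153 and 96 counts in the RN mice, a fitted log2 fold change of -1.36 (edgeR adjusted p = 0.366) that turned to 0.77 with a score of choroid plexus genes in the fit. In sum, those genes did not overlap between the groups, so that fit cannot tell the score from the group. The summed collagen level was 118.6 to 227.4 CPM in RC and 177.3 to 357.2 CPM in RN.

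Genes that lie beside the proteoglycan genes in the genome showed no common direction. Prelp, a heparin-binding leucine-rich protein gene next to Fmod, had 1133, 1564 and 775 counts in the RC mice and 528, 866 and 603 counts in the RN mice, a fitted log2 fold change of -0.85 (edgeR adjusted p = 0.233). Optc, on the far side of Prelp, had 18, 22 and 14 counts in the RC mice and 38, 24 and 43 counts in the RN mice (log2 fold change 0.92, adjusted p = 0.394). Aspn and Omd, beside Ogn, had at most 33 counts in a mouse, with overlapping groups. Kera, beside Lum, had 0 to 3 counts, and Epyc 0 to 14.

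No gene for assembly enzymes, matrix receptors or the TGF-beta pathway was called by edgeR (0 of each list). P4ha3, a prolyl hydroxylase subunit for collagen, had a log2 fold change of -0.77 (adjusted p = 0.185), Itgb8, an integrin subunit that activates TGF-beta, -0.38 (adjusted p = 0.126), and Eng, a TGF-beta co-receptor of endothelium, -0.80 (adjusted p = 0.161, all from edgeR). Tgm2, a transglutaminase, had a log2 fold change of 0.60 (adjusted p = 0.283), and Pcolce2, an enhancer of procollagen processing, -0.70 (adjusted p = 0.394), which was 0.0553 with the choroid plexus score. Tgfb1 had a log2 fold change of 0.39 (adjusted p = 0.358). Inhba, the subunit of activin A, had 52, 19 and 80 counts in the RC mice and 99, 294 and 375 counts in the RN mice, a fitted log2 fold change of 2.30 (adjusted p = 0.148). Fap, the fibroblast activation protein, had 31, 54 and 11 counts in the RC mice and 9, 12 and 2 counts in the RN mice, a fitted log2 fold change of -2.09 (edgeR adjusted p = 0.294). Sdc1, also from the matrix receptor list, was higher in RN without overlap (log2 fold change 0.77, edgeR adjusted p = 0.363). By DESeq2's Wald test, the adjusted p was 0.0263 for P4ha3, 0.0166 for Itgb8 and 0.00519 for Eng. It was 0.0237 for Prelp, also lower in RN, and 0.00909 for Col6a1, higher in RN. These differences were under 2-fold, so DESeq2 called none of them. The medians were 0.05 over 20 enzyme genes, -0.06 over 17 receptor genes and 0.01 over 22 TGF-beta genes.

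**Figure D4:**
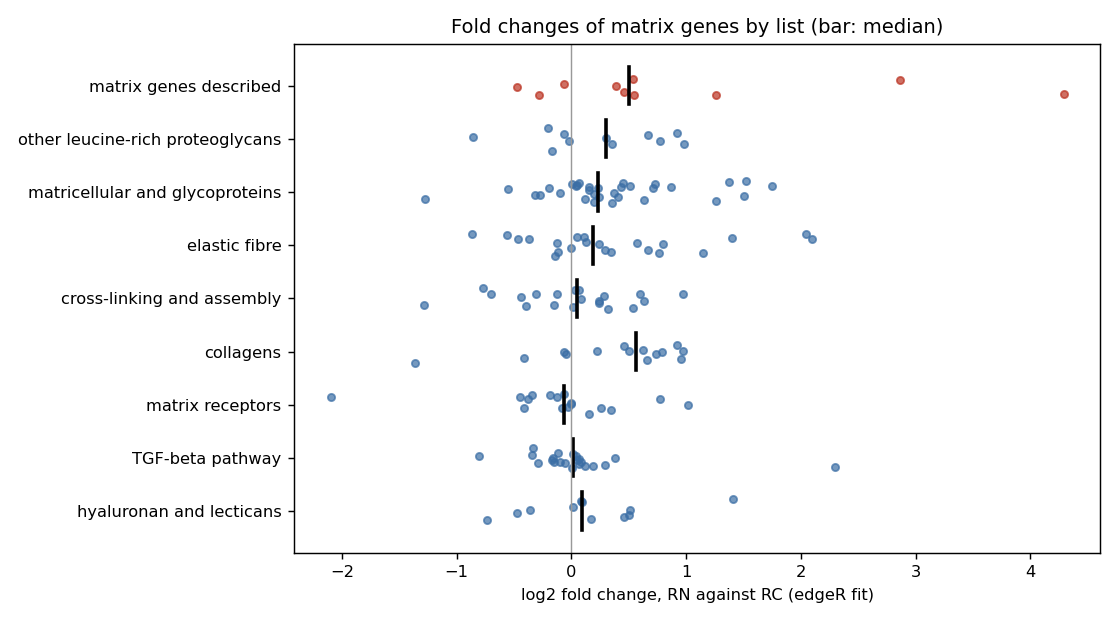
Fitted log2 fold changes of RN against RC from edgeR, 1 point per tested gene, in red for the 10 matrix genes described here and in blue for the other lists, with a black bar at the median. Cilp and Mfap4 lie to the right at 4.29 and 2.86, and the medians of the other lists lie between -0.06 and 0.56.

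Markers of other cell types differed between the groups in the same tissue. The counts without overlap in each marker list stand beside 8.18% higher and 8.12% lower over all tested genes. Macrophage markers summed to 938.1 to 1246 CPM in RC and 1695 to 3024 CPM in RN, and 4 of the 14 were higher and 1 lower without overlap. Gpnmb, a glycoprotein of lipid-laden macrophages, had 6382, 8571 and 7024 counts in the RC mice and 14501, 26864 and 18472 counts in the RN mice (edgeR adjusted p = 0.0630). Gpnmb and Spp1 made up much of these sums, with Spp1 at 221.0 to 302.3 CPM in RC and 408.7 to 960.2 CPM in RN. The median log2 fold change of the 14 markers was 0.44, so the sums do not stand for the list as a whole. Among the RN mice, replicate 2 was highest and replicate 1 lowest in the macrophage sum and in Cilp, Mfap4, Lox, Postn, Fn1 and Lum. Replicate 2 was the highest RN mouse in 33% of all tested genes, and the share with the full order was not counted, so nothing is read from it. Whether macrophages contributed to the values of these genes was not tested.

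Choroid plexus markers, from tissue with a fibroblast stroma, ran from 388.4 to 8712 CPM in RC and from 126.7 to 206.9 CPM in RN, and 9 of the 14 were lower without overlap. The marker Ttr had 44222, 127609 and 4491 counts in the RC mice and 415, 1169 and 1642 counts in the RN mice. The 18 hypothalamus markers summed to 150.1 to 300.9 CPM in RC and 488.9 to 583.1 CPM in RN, and 2 of them were at 0 in some library. Of the 15 that were tested, 8 were higher without overlap. Thalamus markers overlapped, at 1247 to 2438 CPM in RC and 985.4 to 1873 CPM in RN. The part that these differences in bordering tissue had in the values of the matrix genes was not tested. Endothelial markers summed to 668.5 to 744.0 CPM in RC and 466.0 to 607.7 CPM in RN, and astrocyte markers to 5124 to 6483 CPM in RC and 3585 to 4719 CPM in RN, both without overlap. Mural cell markers overlapped, at 364.4 to 402.7 CPM in RC and 309.6 to 386.7 CPM in RN.

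**Figure D5:**
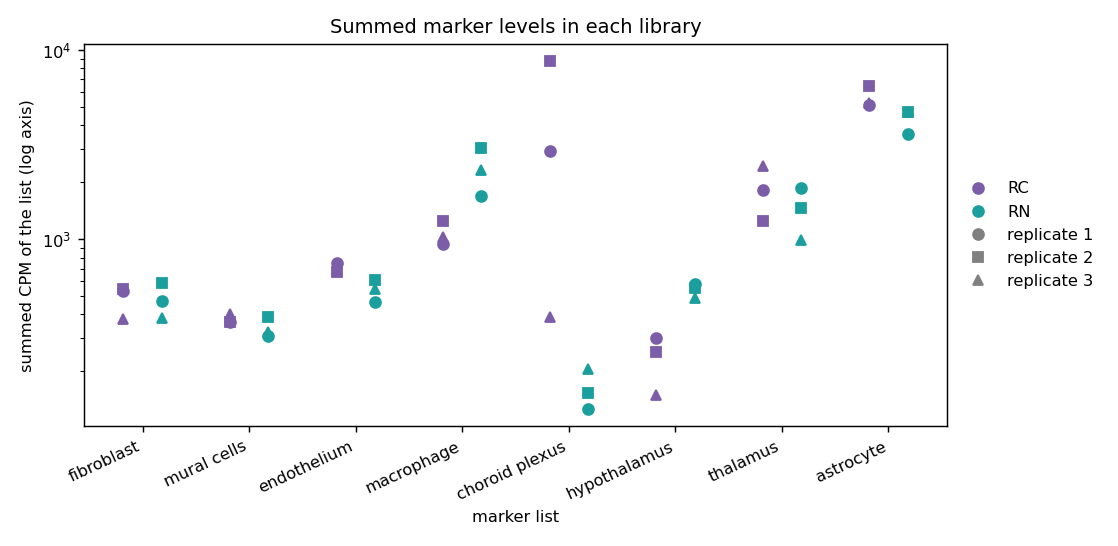
Summed CPM of each marker list in each library on a log axis, RC in purple and RN in teal, with marker shapes for the replicate number. Fibroblast, mural and thalamus sums overlap between the groups. Macrophage sums, made up largely of Gpnmb and Spp1, and hypothalamus sums are higher in RN. Choroid plexus, endothelium and astrocyte sums are lower in RN.

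When a score of choroid plexus genes entered the fit, Cilp had a log2 fold change of 6.31 and Mfap4 one of 3.997, and those of Dcn, Lum and Fmod were 1.79, 1.78 and 2.06. Islr and Ogn, which had the lower mean in RN, turned to 0.97 and 0.22. The summed choroid plexus markers did not overlap between the groups, so this fit cannot separate the score from the group. Nothing is read from its values. With a fibroblast marker score in place of the choroid plexus score, Cilp had a log2 fold change of 4.26 and Mfap4 one of 2.86. Fmod had 0.15, Ogn -0.52 and Islr -0.63. Cilp and Mfap4 were chosen on this contrast, and the fibroblast score holds genes not particular to fibroblasts, such as Pdgfra. Nothing is read from this fit either. With each mouse left out in turn, the log2 fold change of Cilp was 3.79 to 4.91 and that of Mfap4 2.51 to 3.29. With replicate 3 of both groups left out, they were 3.76 and 2.35. These fits reuse the contrast that chose both genes, so nothing is read from them. Leaving out RN replicate 1 brought Lox and Postn to values without overlap, leaving out RC replicate 2 did so for Lox, and leaving out RN replicate 3 for Fmod, narrowly, with 37.4 CPM in RC replicate 1 and 37.5 CPM in RN replicate 1. Over all tested genes, RN values lay above RC values in 13.6%, 13.4% and 12.1% under these 3 omissions, shares larger than with all 6 mice. Without RN replicate 2, Fn1 was lower in RN without overlap, as were 12.9% of all tested genes, and Lum had a log2 fold change of -0.09. That of Islr was 0.07 without RN replicate 3, and that of Ogn was 0.55 without RC replicate 1 and 0.40 without RN replicate 3.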

How the data were processed

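Thalamus of 3 RC and 3 RN mice was compared. Groups and replicate numbers came from the labels. The table the authors deposited holds whole-number read counts, not normalized, for each gene. Libraries were made with the NEBNext Ultra kit and sequenced on an Illumina NovaSeq. The submitters' processing notes name fastp 0.18.0, FastQC, HISAT2, RSEM 1.2.19 and the build GRCm39. The annotation, the use of strand and the rounding of RSEM estimates are not given in the sources used here. All 6 columns of the table were used.

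Genes of low count were removed by filterByExpr at a minimum count of 10, scaled to library size, in at least 3 mice. Cilp, Mfap4, Omd, Ltbp2, Ccn4 and Has1 passed only with RN mice counted. TMM-normalized counts were tested with edgeR 4.0.16 in R 4.3.3 by its quasi-likelihood test with group as the only term. The SE given with an edgeR log2 fold change is the size of that change divided by the square root of the F statistic. For the 10 genes no test is read from it. Benjamini-Hochberg adjustment ran over the 14956 tested genes. Genes were called at an adjusted p under 0.05 and at least 2-fold. DESeq2 1.42.0, which the study used, was an alternative. The others were DESeq2's size factors, 2 other filters on low counts, no fold threshold, the replicate block, choroid plexus and fibroblast scores as covariates and each mouse left out in turn. Gene lengths and overlapping exons came from GENCODE M21, gene order and promoters from RefSeq (GRCm38.p6). The script was tested on simulated counts. No library was a duplicate of another, since chi-square per degree of freedom was 15.8 to 42.7 between pairs.

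The 10 genes, the lists and the tests were chosen with earlier results of these data known. Besides the 10 genes, the text names up to 3 genes of each list by smallest p, genes beside the proteoglycan genes, those of the first 4 markers of each list (with Dpt, Slc6a13 and Slc47a1) that a result turns on, and Neurod1. Tnxb, Mapk7, Islr2, Slc22a6 and Slc13a3 were chosen after seeing their values.

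Replicate numbers are shared by both groups, and the labels do not say that a number marks a litter or day. Deviations from the group mean correlated across genes between same-numbered mice, at 0.178, 0.147 and 0.208, but so did the differently numbered RC1 and RN2, at 0.154. All same-numbered pairs were over 0.1, so blocked values are given where they change a call.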

Additional observations from a re-analysis of the deposited data

How the results depend on the processing

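The 9 higher and 2 lower genes called by edgeR became 99 and 87 with DESeq2's Wald test, 36 and 7 without a filter on low counts, and 17 and 5 with the replicate block. With a choroid plexus score in the fit they were 0 and 1, and with the fibroblast score 4 genes were higher. With replicate 3 of both groups left out, which was chosen after seeing the data, they were 4 and 0. Each mouse left out in turn gave 3 to 26 higher and 0 to 18 lower genes. These were 26 and 4 without RN replicate 1, 5 and 18 without RC replicate 3, 4 and 0 without RC replicate 1, 3 and 1 without RC replicate 2, 3 and 0 without RN replicate 2, and 1 lower gene without RN replicate 3.

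Of the 141 other matrix genes, 0 were called by edgeR, 8 by DESeq2, 1 (Hmcn2) without a filter and 0 to 3 with a mouse left out. Without RN replicate 1, Tnc, Spp1 and Adamtsl2 were called. Of the 10 matrix genes, 2 to 4 were higher without overlap when a mouse was left out, 4 of them without RN replicate 1, where 13.6% of all tested genes were higher without overlap. Their median log2 fold change was 1.78 with the choroid plexus score in the fit. That score turned Islr from -0.29 to 0.97 and Ogn from -0.06 to 0.22, and Ogn was 0.13 with replicate 3 of both groups left out. It also reversed Pcolce2, to 0.0553, and Col8a1, to 0.77, and took Neurod1 to an adjusted p of 0.0885 from edgeR, the highest of its alternatives, which began at 2.98e-59 with DESeq2. The replicate block changed no call among the matrix genes. A minimum of 10 counts in every mouse removed Cilp, so it has no value there. The choroid plexus sums did not overlap between the groups, so the score and the group cannot be told apart in the fit with that score. The cause of the other changes was not tested.

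With 3 mice a group and at most 11 counts of Cilp in an RC mouse, the size of its difference is imprecise, and differences under the spread between mice could not be detected.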

Other observations

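Genes of the hyaluronan matrix around neurons were measured in the same mice. Hapln1, a link protein that fixes lecticans to hyaluronan, had 137, 179 and 201 counts in the RC mice and 115, 100 and 104 counts in the RN mice without overlap (log2 fold change -0.73, SE 0.20, edgeR adjusted p = 0.200). Bcan, which encodes brevican, a lectican of astrocytes, had a mean of 146.5 ± 22.3 CPM (SD) over the 3 RC mice and 113.9 ± 8.18 CPM over the 3 RN mice, also without overlap (n = 3 each, log2 fold change -0.36, edgeR adjusted p = 0.269). Has1, a hyaluronan synthase, had 7, 10 and 9 counts in the RC mice and 15, 25 and 32 counts in the RN mice (log2 fold change 1.41, edgeR adjusted p = 0.230). The list of 11 tested genes had a median log2 fold change of 0.09, with 2 genes higher and 3 lower without overlap, and 0 called. Over all tested genes, 8.18% were higher and 8.12% lower without overlap.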
